A study of Homo sapiens with 6 samples.

Results

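Fatty acid activation and oxidation was followed through 36 genes. They were chosen by name, as rows of the deposited gene count matrix whose Ensembl identifier maps to a member symbol. No measured value enters that rule, although the list itself was drawn up with earlier results of these data known. All 36 were found among the 79302 rows of the matrix. Of these genes, 6 belong to the activation step, 4 to the carnitine shuttle, 19 to the mitochondrial step and 7 to the peroxisomal step. The libraries came from HCT116, a human colorectal cancer cell line, and compared 3 libraries carrying an shRNA against GDPD5 (shGDPD5, labelled KD) with 3 carrying a control shRNA (shCtrl, labelled control). The study describes both groups as radioresistant HCT116 cells collected after irradiation, whereas the sample labels name only the cell line and the shRNA. Which of the study's GDPD5 shRNAs was sequenced is not given in the sources used here. Whether replicates were separate cultures is not stated in any source, so p-values measure only the spread between these libraries, which may be technical.

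A fatty acid must be joined to coenzyme A before it can be used, and this activation is carried out by acyl-CoA synthetases. Long acyl chains then cross into mitochondria as carnitine esters, made by CPT1 on the outer membrane, carried by the exchanger SLC25A20 and turned back into acyl-CoA by CPT2. In the matrix, repeated rounds of dehydrogenation, hydration, another oxidation and thiolysis release acetyl-CoA, and the electrons taken by the dehydrogenases reach the respiratory chain through ETFA, ETFB and ETFDH. Peroxisomes run a parallel pathway that shortens very long, branched and dicarboxylic chains.

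Total estimated counts lay between 16715447 and 18510670 in the shGDPD5 libraries and between 17602320 and 18076702 in the shCtrl libraries. Among replicates, the pairs of shCtrl replicate 1 with replicates 2 and 3 differed most, with chi-square values per degree of freedom of 6.25 and 7.28, against 1.65 to 3.38 in the other pairs. Values below are CPM, estimated counts scaled to a common library total with TMM factors, and levels of different genes are set side by side only as CPM per kilobase of annotated exon. In this bulk RNA, fewer cells of a kind and less RNA per cell cannot be told apart. Of 11 colorectal epithelial markers, 7 were tested, of which 1 was higher and 6 were lower in shGDPD5. The lower share was 85.7%, beside 30.1% of all tested genes. CDH1 was lower (log2 fold change -0.83, adjusted p = 9.26e-09). The higher marker was KRT20 (log2 fold change 1.23, adjusted p = 0.000203), at a mean of 2.74 CPM in shGDPD5 and 1.17 CPM in shCtrl. The 11 epithelial markers summed to 2529 to 2637 CPM in shGDPD5 and 3174 to 3613 CPM in shCtrl. CDX1 was at 0 in every library and VIL1, CDH17 and LGALS4 were under 1 CPM. The 7 fibroblast markers summed to 20.7 to 24.2 CPM in shGDPD5 and 19.0 to 21.6 CPM in shCtrl, nearly all of it COL1A1, with COL1A2, DCN and LUM at 0. The 9 immune markers summed to 3.22 to 3.45 CPM in shGDPD5 and 7.34 to 11.7 CPM in shCtrl, most of it CD68, with CD3E, MS4A1 and TYROBP at 0. The 13 mitochondrially encoded genes, 9 of them higher and 1 lower, summed to 98180 to 105600 CPM in shGDPD5 and 92000 to 95770 CPM in shCtrl. Their higher share was 69.2%, beside 29.7% of all tested genes. Whether these differences play a part in the members' values was not tested.

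GDPD5 (ENSG00000158555, minus strand of chromosome 11 from 75434640 to 75525903) encodes a glycerophosphodiester phosphodiesterase and is the gene the shRNA targets. It had 5.43, 5.55 and 5.19 CPM in the shGDPD5 libraries, against 8.33, 11.6 and 9.75 CPM in the shCtrl libraries. The groups did not overlap, and GDPD5 was lower in shGDPD5 at a log2 fold change of -0.88 ± 0.14 (SE, adjusted p = 0.000116), which left 54.5% of the shCtrl level.

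Of the 36 members, 35 passed the filter on low counts and were tested with all other genes. With an adjusted p under 0.05 in edgeR's quasi-likelihood test, 13 members were higher in shGDPD5, 10 were lower and 12 were not called. The 23 called members made up 65.7% of those tested, beside 59.7% of all 16755 tested genes. The higher members made up 37.1% beside a background of 29.7%, and the lower members 28.6% beside 30.1%. The shares among the members were therefore near those of the transcriptome. Counts for single steps and lists below are to be read beside these same background shares. In no member did the size of the log2 fold change reach 1, a size that 11.9% of all tested genes reached together with an adjusted p under 0.05 and 12.0% together with an unadjusted p under 0.05. The members' log2 fold changes ran between -0.93 (ACAD11) and 0.91 (ACAA2), with a median of 0.03 beside 0.01 for all tested genes and a median absolute value of 0.33 beside 0.37. For 23 of the 35 tested members the 3 shGDPD5 libraries did not overlap with the 3 shCtrl libraries, beside 64.9% of all tested genes. These 23 are not exactly the 23 called members, since CPT1B was called with overlapping groups and HADHA was not called although its groups did not overlap.

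**Figure D1:**
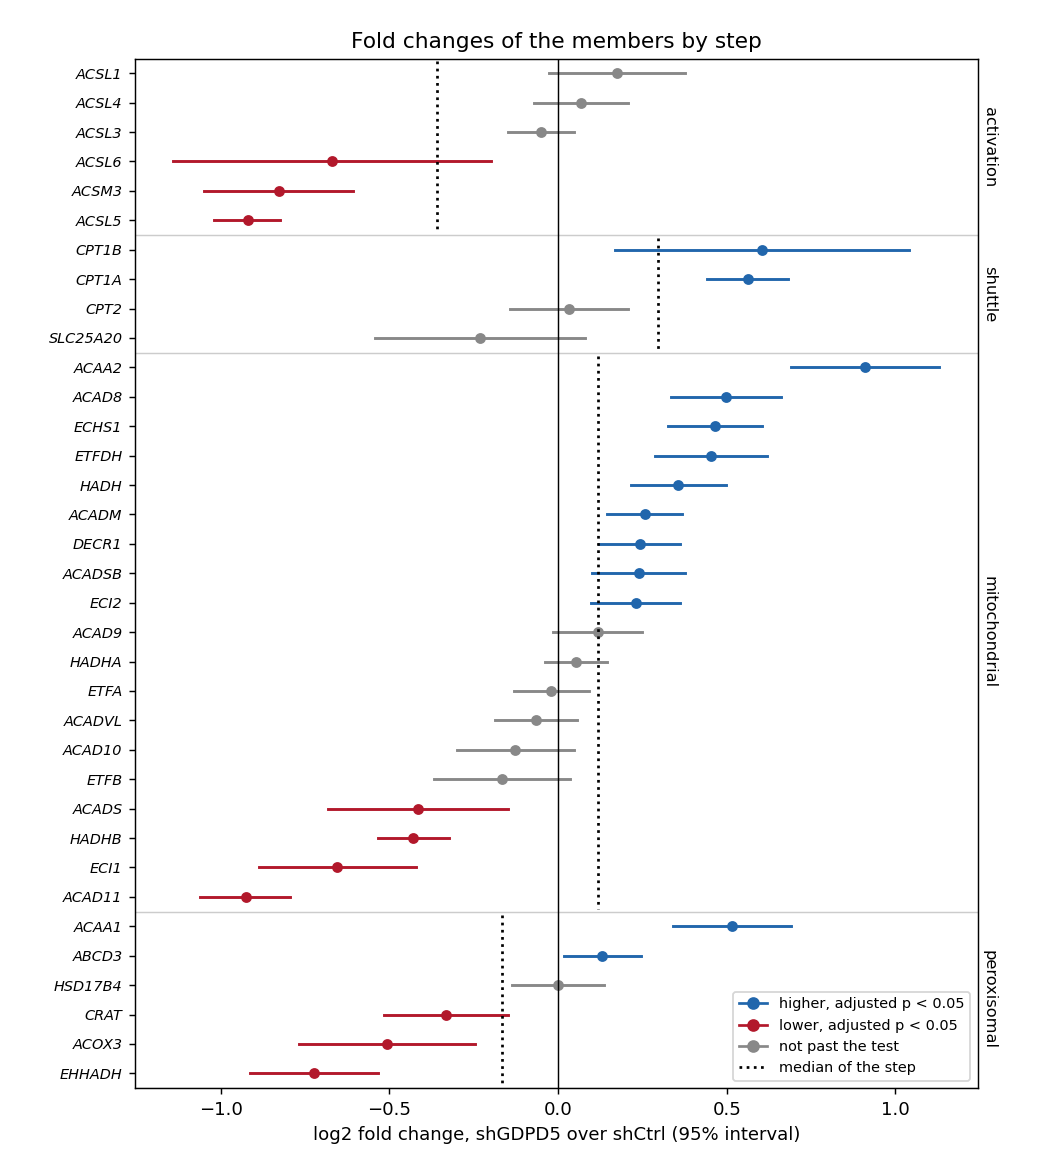
Log2 fold change of the 35 tested members, shGDPD5 over shCtrl (x axis), ordered by step and by size (y axis). Points are estimates of the edgeR fit and bars are 95% intervals, with blue for higher, red for lower and grey for members not past the test, and dotted lines mark the median of each step. The activation panel holds no higher member, while the mitochondrial panel spans the whole range from ACAA2 at 0.91 to ACAD11 at -0.93.

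Summed over its members, each step had a level that can be read per library. The activation step summed to 89.2, 91.6 and 90.1 CPM per kilobase in shGDPD5, against 131, 127 and 125 CPM per kilobase in shCtrl. The shuttle summed to 28.6, 31.9 and 29.2 CPM per kilobase in shGDPD5, against 22.0, 23.7 and 24.8 CPM per kilobase in shCtrl. The activation sum was thus lower and the shuttle sum higher in every shGDPD5 library than in any shCtrl library. Most of each difference lay in a single gene. ACSL5 had 39.5 CPM per kilobase in shGDPD5 and 74.7 in shCtrl, and CPT1A had 18.8 in shGDPD5 and 12.8 in shCtrl. The mitochondrial step summed to 428 ± 2.90 CPM per kilobase in shGDPD5 and 424 ± 12.6 CPM per kilobase in shCtrl (SD, n = 3 each), with overlapping libraries. The peroxisomal step summed to 77.4 ± 0.89 CPM per kilobase in shGDPD5 and 73.7 ± 2.38 CPM per kilobase in shCtrl (SD, n = 3 each), and its lowest shGDPD5 library, at 76.5, lay just above its highest shCtrl library, at 76.2. A sum is dominated by its most abundant members, so the steps were also described by the median log2 fold change of their tested members, which was -0.36 for activation (n = 6), 0.30 for the shuttle (n = 4), 0.12 for the mitochondrial step (n = 19) and -0.17 for the peroxisomal step (n = 6). The activation median lay between ACSL3, not called at -0.05, and ACSL6, close to the floor at -0.67. The shuttle median lay between CPT2, not called at 0.03, and CPT1A at 0.56. Neither median therefore describes a shift shared by the members of its step. Without shCtrl replicate 1 the mitochondrial median was 0.07. The differences between steps were not tested.

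**Figure D2:**
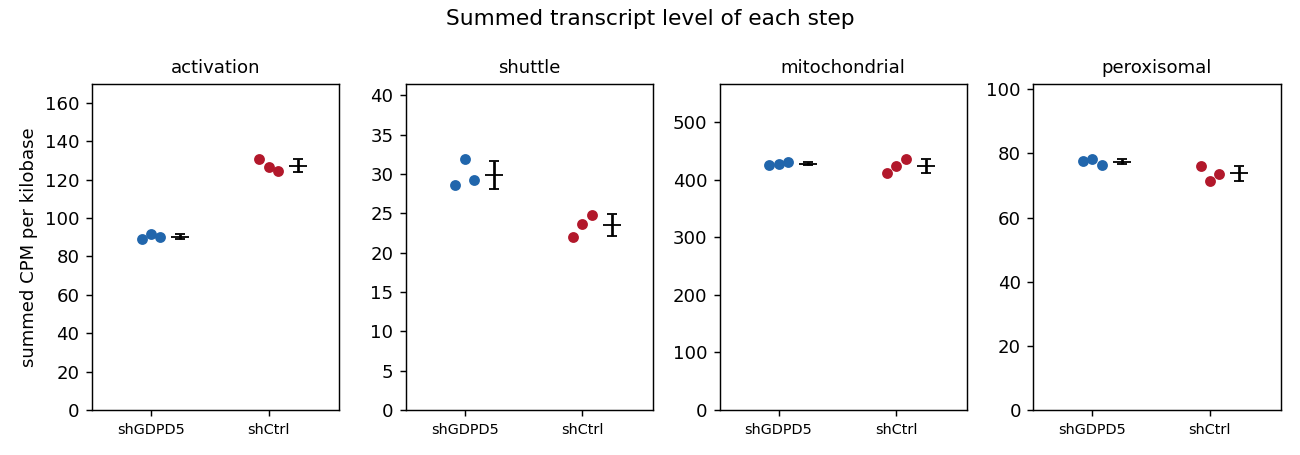
Summed transcript level of each step in CPM per kilobase of exon (y axis, each panel with its own scale starting at 0) for the shGDPD5 and shCtrl libraries (x axis). Points are single libraries and the bar beside them is the mean with its SD. The activation sums, at 89.2 to 91.6 in shGDPD5 and 125 to 131 in shCtrl, lie farthest apart, and the mitochondrial sums overlap.

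In the activation step, 3 of 6 members fell and none rose. ACSL5 (plus strand of chromosome 10, 112374018 to 112428380), a long-chain acyl-CoA synthetase abundant in the intestinal epithelium, had 148, 157 and 155 CPM in shGDPD5, against 295, 289.6 and 287 CPM in shCtrl. Every shGDPD5 library was thus well under the lowest shCtrl library, and ACSL5 was at 52.8% of its shCtrl level (log2 fold change -0.92 ± 0.04, SE, adjusted p = 3.87e-09). The exons of ACSL5 share 144 bases with those of ZDHHC6 on the other strand, a palmitoyltransferase gene whose own mean was 162 CPM in shGDPD5 and 91.1 CPM in shCtrl (log2 fold change 0.83, adjusted p = 3.03e-08), so the neighbour moved the opposite way. ACSM3 (chromosome 16, 20610243 to 20797581), a mitochondrial medium-chain acyl-CoA synthetase, had 6.84, 7.85 and 7.61 CPM in shGDPD5, against 13.5, 13.7 and 12.4 CPM in shCtrl. The groups stood apart by a log2 fold change of -0.83 ± 0.10 (SE, adjusted p = 1.58e-05). ACSM3 shares 837 exonic bases with ERI2 on the other strand, which was lower at a log2 fold change of -0.22 (adjusted p = 0.026).

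ACSL6, a long-chain synthetase best known from brain, was close to the floor of the assay, with 30, 24 and 32 counts in shGDPD5 and 40, 54 and 40 counts in shCtrl. In CPM these were 1.75, 1.28 and 1.80 in shGDPD5, against 2.33, 3.05 and 2.31 in shCtrl. The libraries did not overlap (log2 fold change -0.67 ± 0.22, SE, adjusted p = 0.0176), but the call was lost without shGDPD5 replicate 2 and without shCtrl replicate 2, at -0.53 each (adjusted p = 0.0684 and 0.0846). The other long-chain synthetases gave log2 fold changes of 0.17 for ACSL1, -0.05 for ACSL3 and 0.07 for ACSL4, and none of these passed the test (adjusted p = 0.123, 0.358 and 0.386). Their 95% intervals were -0.03 to 0.38 for ACSL1, -0.15 to 0.05 for ACSL3 and -0.07 to 0.21 for ACSL4, which was called without shCtrl replicate 1 at 0.13. ACSL3, the synthetase of the endoplasmic reticulum and nascent lipid droplets, had 156 to 165 CPM in shGDPD5 and 163 to 169 CPM in shCtrl. ACSL4, which prefers arachidonate, had 86.7 to 95.1 CPM in shGDPD5 and 81.1 to 94.2 CPM in shCtrl.

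The family's make-up therefore differed between the groups. On the per-kilobase scale ACSL5 made up 43.9%, 45.3% and 45.6% of the ACSL transcripts in shGDPD5, against 60.0%, 61.0% and 61.2% in shCtrl. ACSL3 took 32.0% ± 0.55 in shGDPD5 and 23.7% ± 0.13 in shCtrl, and ACSL4 took 19.2% ± 1.10 in shGDPD5 and 13.1% ± 0.76 in shCtrl (SD, n = 3 each). ACSL5 was the most abundant synthetase in both groups, at 39.5 CPM per kilobase in shGDPD5 and 74.7 CPM per kilobase in shCtrl, followed by ACSL3 at 28.1 CPM per kilobase in shGDPD5 and 29.1 CPM per kilobase in shCtrl. ACSL1, the main synthetase of liver, heart and fat, took only 3.51% ± 0.24 in shGDPD5 and 2.22% ± 0.16 in shCtrl (SD, n = 3 each). Since ACSL3 and ACSL4 were not called, their larger shares go with the lower level of ACSL5.

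**Figure D3:**
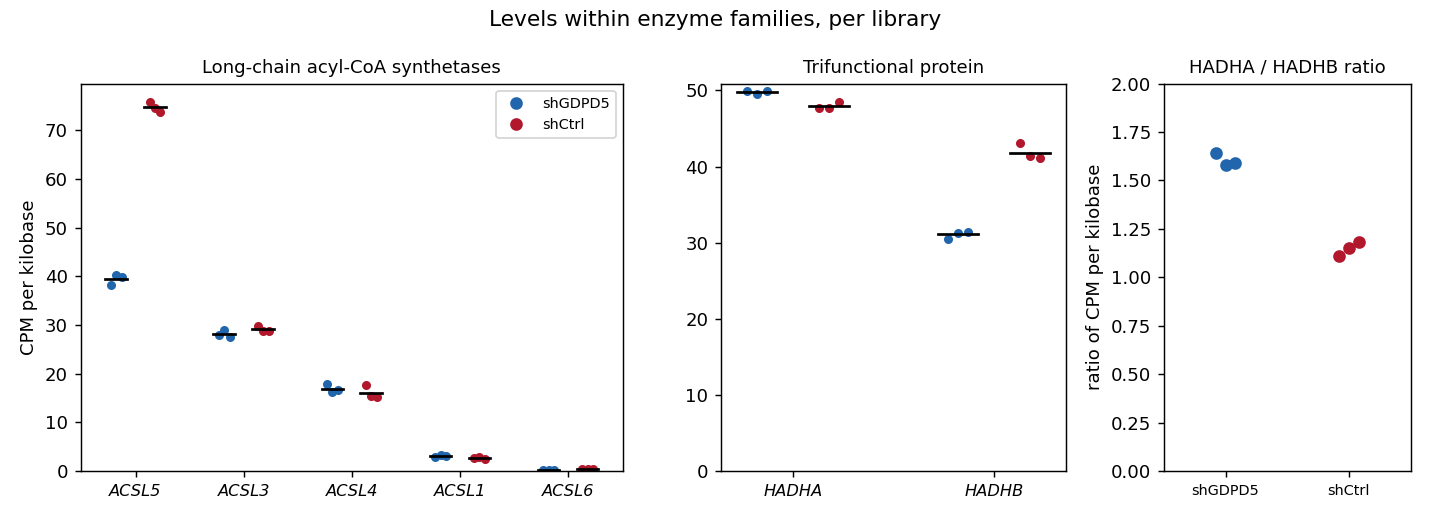
Levels of the ACSL synthetases and of the trifunctional protein subunits HADHA and HADHB in CPM per kilobase of exon (y axes of the left and middle panels), and the ratio of HADHA to HADHB on that scale (right panel). Points are single libraries, shGDPD5 in blue and shCtrl in red, and black lines are group means. ACSL5 and HADHB lie apart between the groups, with mean levels of 39.5 and 31.1 CPM per kilobase in shGDPD5 and 74.7 and 41.8 in shCtrl, and the ratio is 1.58 to 1.64 in shGDPD5 and 1.11 to 1.18 in shCtrl.

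At the carnitine shuttle, both CPT1 genes among the members were higher in shGDPD5. CPT1A (minus strand of chromosome 11, 68754620 to 68844410), the rate-limiting and malonyl-CoA-sensitive transferase of most tissues, had 107, 115 and 106 CPM in shGDPD5, against 69.8, 76.8 and 74.8 CPM in shCtrl. The lowest shGDPD5 library was above the highest shCtrl library, and the difference was 1.48-fold (log2 fold change 0.56 ± 0.06, SE, adjusted p = 2.44e-06). CPT1B (chromosome 22, 50568861 to 50578465), the form of muscle and heart, had 6.14, 9.23 and 7.27 CPM in shGDPD5, against 3.73, 4.63 and 6.57 CPM in shCtrl. Here shCtrl replicate 3 lay above shGDPD5 replicate 1, and the log2 fold change of 0.60 ± 0.20 (SE, adjusted p = 0.02) was not called without shGDPD5 replicate 2 (0.42), without shCtrl replicate 1 (0.43) or without shCtrl replicate 2 (0.55). CPT1B is uncertain for another reason, since 2377 of its 2969 exonic bases are shared with the read-through gene CHKB-CPT1B on the same strand, which was lower (log2 fold change -0.27, adjusted p = 0.0142).

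CPT2, the inner-membrane partner of CPT1, had 15.3, 15.3 and 16.4 CPM in shGDPD5, against 15.1, 15.9 and 14.9 CPM in shCtrl. The libraries were interleaved, with a log2 fold change of 0.03 and a 95% interval of -0.14 to 0.21 (adjusted p = 0.749). SLC25A20, the carnitine/acylcarnitine exchanger between the transferases, had 6.20, 7.95 and 6.26 CPM in shGDPD5, against 7.34, 7.28 and 9.40 CPM in shCtrl. Its log2 fold change of -0.23 did not pass the test (95% interval -0.54 to 0.08, adjusted p = 0.182), and it was -0.37 without shGDPD5 replicate 2 (adjusted p = 0.053) and -0.11 without shCtrl replicate 3 (adjusted p = 0.567). The entry enzyme thus had more transcript relative to its partner, with a CPT1A to CPT2 ratio per kilobase of 3.84, 4.11 and 3.54 in shGDPD5, against 2.53, 2.66 and 2.75 in shCtrl. Of the transcripts of CPT1A, CPT1B and CPT1C, CPT1A made up 83.1% ± 1.20 in shGDPD5 and 79.7% ± 3.60 in shCtrl (SD, n = 3 each), with the library ranges overlapping. CPT1C, which is not a member, took 5.78% in shGDPD5 and 9.99% in shCtrl. It was not called (log2 fold change -0.31, adjusted p = 0.14).

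**Figure D4:**
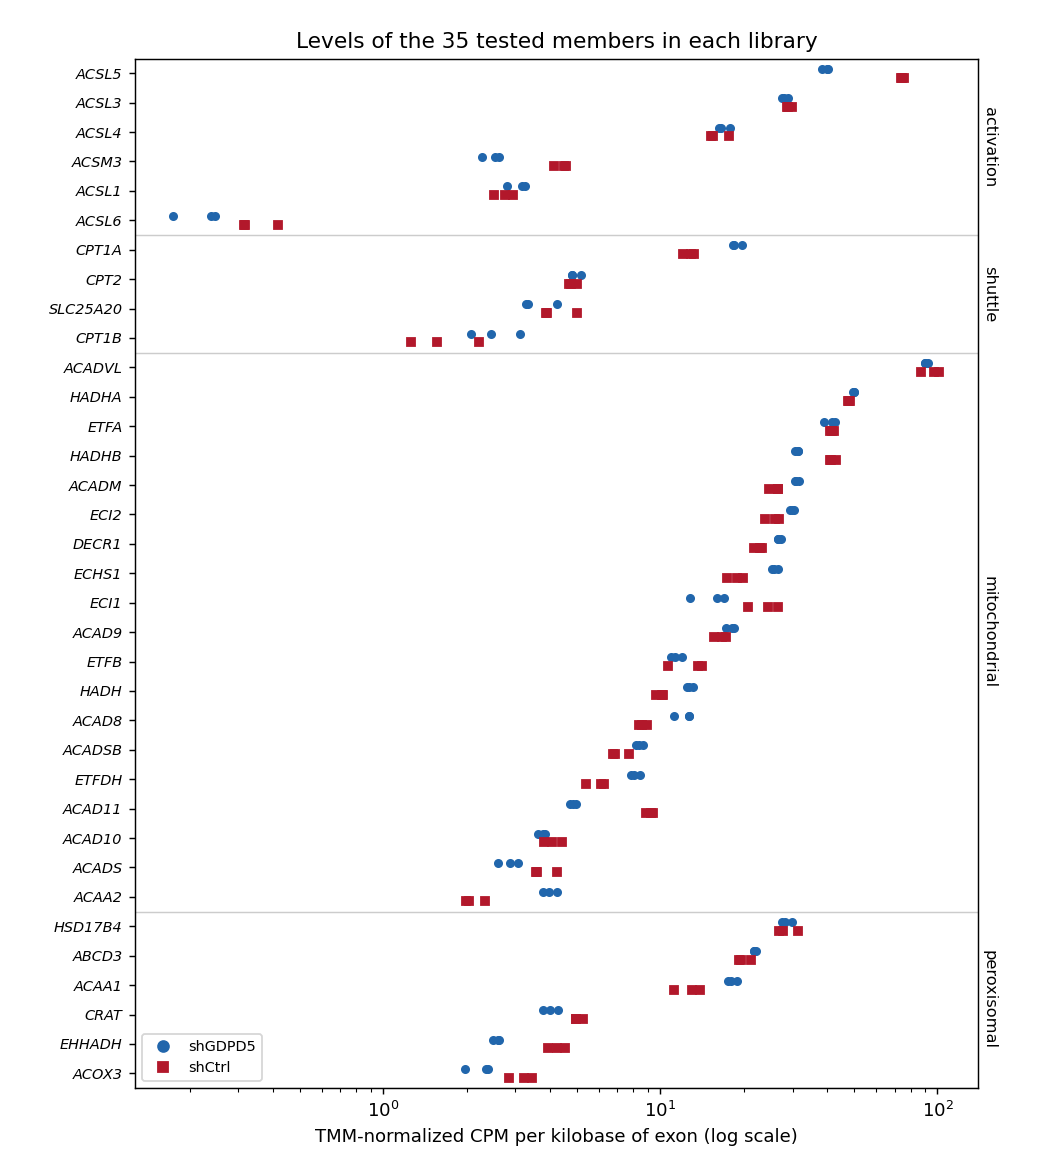
Level of each of the 35 tested members in CPM per kilobase of exon (x axis, log scale), grouped by step (y axis). Each point is a single library, blue circles for shGDPD5 and red squares for shCtrl. Mean levels in shGDPD5 ran from 0.22 for ACSL6 to 91.0 for ACADVL, and the within-group spread was widest for low members such as CPT1B and ACSL6.

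In the mitochondrial step, 9 of 19 members rose, 4 fell and 6 were not called. Higher members made up 47.4% and lower members 21.1%, beside 29.7% and 30.1% of all tested genes. The 8 acyl-CoA dehydrogenases split in both directions, with 3 higher, 2 lower and 3 not called (median log2 fold change 0.03). Those that act on fatty acids open each round of oxidation, whereas ACAD8 and ACADSB, both among the 3 higher, belong to amino acid breakdown. ACAD11 (minus strand of chromosome 3, 132558138 to 132660723), which handles long and very long chains, had 22.0, 21.3 and 22.4 CPM in shGDPD5, against 42.5, 40.3 and 42.0 CPM in shCtrl. This was the largest decrease among the members, to 52.6% of the shCtrl level (log2 fold change -0.93 ± 0.06, SE, adjusted p = 6.06e-08). ACAD8 (chromosome 11, 134253495 to 134265855), the isobutyryl-CoA dehydrogenase of valine breakdown, had 28.6, 28.5 and 25.1 CPM in shGDPD5, against 18.8, 19.2 and 20.1 CPM in shCtrl. It was higher in every shGDPD5 library, by a log2 fold change of 0.50 ± 0.07 (SE, adjusted p = 9.42e-05).

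Of the other dehydrogenases, the medium-chain enzyme ACADM was higher by 0.26 and ACADSB, which acts on the short branched acyl-CoA of isoleucine, by 0.24, while the short-chain enzyme ACADS was lower, with -0.42 on the log2 scale. The ACADS call was lost without shCtrl replicate 3, at -0.34 (adjusted p = 0.0506). ACADVL, the very-long-chain enzyme, was the most abundant member on the per-kilobase scale, at 91.0 CPM per kilobase in shGDPD5 and 95.3 CPM per kilobase in shCtrl. Its log2 fold change of -0.07 was not called (95% interval -0.19 to 0.06, adjusted p = 0.332), although it was called at -0.13 without shCtrl replicate 1. ACAD9, which also serves complex I assembly, and ACAD10 were not called either, with 0.12 (95% interval -0.01 to 0.25) and -0.13 (95% interval -0.30 to 0.05). ACADM, ACADS and ACADVL, which differ in the chain length they prefer, therefore did not share a direction.

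Hydration, the later oxidation and thiolysis are carried out by 5 members, of which 3 were higher and 1 was lower. ACAA2 (minus strand of chromosome 18, 49782167 to 49813960), the mitochondrial 3-ketoacyl-CoA thiolase, had 13.8, 14.5 and 15.5 CPM in shGDPD5, against 7.28, 8.52 and 7.50 CPM in shCtrl. With no overlap, it was 1.88-fold higher (log2 fold change 0.91 ± 0.10, SE, adjusted p = 7.15e-06), the largest increase of any member. ECHS1 (chromosome 10, 133362480 to 133373689), the short-chain enoyl-CoA hydratase, had 41.7, 43.1 and 40.7 CPM in shGDPD5, against 28.2, 32.2 and 30.6 CPM in shCtrl. All 3 shGDPD5 libraries were above all 3 shCtrl libraries (log2 fold change 0.46 ± 0.06, SE, adjusted p = 4.77e-05). HADH, the short-chain 3-hydroxyacyl-CoA dehydrogenase that follows ECHS1 in the spiral, was higher by 0.36 on the log2 scale.

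HADHA and HADHB encode the alpha and beta subunits of the mitochondrial trifunctional protein, which joins long-chain hydratase, dehydrogenase and thiolase activities in a single complex. HADHA had 157, 156 and 157 CPM in shGDPD5, against 149.8, 149.9 and 152 CPM in shCtrl. The groups did not overlap, yet the log2 fold change of 0.05 (95% interval -0.04 to 0.14, adjusted p = 0.304) did not pass the test. HADHB had 68.2, 69.9 and 70.2 CPM in shGDPD5, against 96.1, 92.5 and 91.8 CPM in shCtrl. HADHB was lower in every shGDPD5 library, at 74.3% of its shCtrl level (log2 fold change -0.43 ± 0.05, SE, adjusted p = 8.42e-06). The ratio of HADHA to HADHB per kilobase was 1.64, 1.58 and 1.59 in shGDPD5, against 1.11, 1.15 and 1.18 in shCtrl.

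These subunit genes lie head to head on chromosome 2, HADHA on the minus strand from 26190635 to 26244726 and HADHB on the plus strand from 26243170 to 26290468 in GENCODE release 29. In RefSeq on GRCh38.p14 their start sites are 307 bases apart, and the promoter windows of both genes (250 bases before to 50 after each start) share 194 bases at chr2:26244689-26244882. In GENCODE, HADHB begins outside the shared stretch, and counts per gene do not separate transcripts by start site. That stretch is shown, on the plus strand, because it lies between the RefSeq start sites of genes whose fold changes differed. Capitals mark the only match in it to a GC box (GGGCGG), which is read on the minus strand and begins at base 187.
HADHA-HADHB: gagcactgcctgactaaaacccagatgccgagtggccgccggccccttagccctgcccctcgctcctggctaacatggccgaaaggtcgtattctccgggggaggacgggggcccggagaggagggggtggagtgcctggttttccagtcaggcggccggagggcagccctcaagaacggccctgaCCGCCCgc

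The auxiliary enzymes that move or remove double bonds of unsaturated chains had 2 higher members and 1 lower. ECI1, an enoyl-CoA isomerase of mitochondria, had 36.5, 27.5 and 34.6 CPM in shGDPD5, against 44.7, 52.8 and 57.5 CPM in shCtrl. It was lower in each shGDPD5 library than in any shCtrl library (log2 fold change -0.65, adjusted p = 0.000188). ECI2, an isomerase found in peroxisomes as well as mitochondria, had 47.3, 48.9 and 47.8 CPM in shGDPD5, against 41.5, 38.3 and 43.0 CPM in shCtrl. The isomerases thus moved in opposite directions, with ECI2 higher by 0.23 on the log2 scale (adjusted p = 0.00547). DECR1, the 2,4-dienoyl-CoA reductase, was higher by 0.24.

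Electrons from the dehydrogenases pass through the heterodimer of ETFA and ETFB to ETFDH in the inner membrane. ETFDH had 26.3, 25.7 and 27.8 CPM in shGDPD5, against 20.6, 17.7 and 20.1 CPM in shCtrl. It was higher without overlap (log2 fold change 0.45, adjusted p = 0.000252), whereas PPID, which shares 490 exonic bases with it on the other strand, was not called (log2 fold change -0.03, adjusted p = 0.611). ETFA and ETFB were not called, with log2 fold changes of -0.02 (95% interval -0.13 to 0.09) and -0.17 (95% interval -0.37 to 0.03). For ETFB, shCtrl replicate 1 had 39.4 CPM, beside 50.5 and 52.4 CPM in shCtrl replicates 2 and 3, and without that library ETFB was called lower at -0.29.

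In the peroxisomal step, 2 of 6 tested members rose, 3 fell and 1 was not called. ACAA1 (minus strand of chromosome 3, 38103129 to 38137242), the peroxisomal thiolase, had 35.4, 33.5 and 32.7 CPM in shGDPD5, against 20.9, 24.1 and 25.9 CPM in shCtrl. It was 1.43-fold higher with no overlap (log2 fold change 0.52 ± 0.08, SE, adjusted p = 0.000126). ABCD3, which carries substrates such as branched and dicarboxylic acyl chains into the peroxisome, had 81.2, 81.5 and 82.9 CPM in shGDPD5, against 79.2, 72.1 and 73.0 CPM in shCtrl. The groups were separated by little (log2 fold change 0.13 ± 0.05, SE, adjusted p = 0.0479), and this call was lost in 10 of 15 alternative settings, among them every removal of a single library (0.10 to 0.14) but that of shCtrl replicate 1 (0.17).

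EHHADH (chromosome 3, 185190624 to 185281990), the bifunctional enzyme that hydrates and oxidises dicarboxylic and straight chains, had 11.1, 11.6 and 11.5 CPM in shGDPD5, against 18.9, 20.1 and 17.4 CPM in shCtrl. It lay at 60.6% of the shCtrl level with no overlap (log2 fold change -0.72 ± 0.09, SE, adjusted p = 1.39e-05). ACOX3 (chromosome 4, 8366282 to 8440723), an acyl-CoA oxidase of branched chains, had 7.07, 5.92 and 7.16 CPM in shGDPD5, against 9.67, 8.58 and 10.4 CPM in shCtrl. CRAT (chromosome 9, 129094810 to 129111189), the carnitine acetyltransferase of peroxisomes and mitochondria, had 12.3, 12.9 and 13.8 CPM in shGDPD5, against 16.1, 16.0 and 17.0 CPM in shCtrl. Both were lower without overlap, ACOX3 with a log2 fold change of -0.51 ± 0.12 (SE, adjusted p = 0.00299) and CRAT with -0.33 ± 0.08 (SE, adjusted p = 0.00466).

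HSD17B4, the other peroxisomal bifunctional enzyme, which serves very long and branched chains, had 109, 116 and 107 CPM in shGDPD5, against 121, 104 and 107 CPM in shCtrl. Its libraries overlapped and its log2 fold change was 0.00 (95% interval -0.14 to 0.14, adjusted p = 0.995). On the per-kilobase scale it stood at 28.6 CPM in both groups, above EHHADH at 2.56 CPM per kilobase in shGDPD5 and 4.23 CPM per kilobase in shCtrl. CROT, the carnitine octanoyltransferase that hands shortened chains on to mitochondria, was listed at 0 counts in all 6 libraries and was not tested. By sampling alone, a 0 allows up to 3 counts in each library. Whether the authors' annotation or counting left this row empty is not given in the sources used here.

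Of the members named with overlapping exons, those on opposite strands cannot be told apart from their neighbours if the authors' counting did not use strand, which is not given in the sources used here. CPT2, ACADVL and ACAD9 also share 99, 85 and 129 exonic bases with CZIB, DLG4 and CFAP92 on the other strand. CFAP92 was lower (log2 fold change -1.13, adjusted p = 1.3e-06). CZIB and DLG4 were not called. Annotated pseudogenes of members held at most 14 counts over all 6 libraries.

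Promoter windows were in the RefSeq table for 28 of the 36 members, with 44 windows in all, and were searched on both strands for short motifs of factors known to act on oxidation genes. No window was listed for ACSM3, CPT1B, ACAD11, DECR1, ETFDH, ACAA1, EHHADH or CRAT, so the motif shares do not cover them. ACSL1 and ACSL6 had several windows each, so a share of windows is not a share of members. Each share is set beside that in all 35116 promoters of the table and that in the 16323 promoters of tested genes. The PPAR response element in its exact form (AGGTCA, any base, then AGGTCA again) was in 0 of the 44 windows, beside 0.0228% of all promoters and 0.0306% of those of tested genes. A relaxed form that fixes only the AG and CA of each repeat was in 1 window, that of ECI2 (2.27%, beside 2.02% and 1.45%). The estrogen-related receptor motif TCAAGGTCA was in 0 windows, beside 0.353% and 0.178%. The NRF1 motif (GCGCA, any base, then GCGC) was in the windows of ABCD3, ACAD9 and ETFB (6.82%, beside 5.78% and 9.63%). The ETS motif CCGGAAG was in those of ACAD10, CPT2, ECI1, ETFB and SLC25A20 (11.4%, beside 10.3% and 16.4%). For NRF1 and ETS these shares lay between the backgrounds, but they rest on only 3 and 5 windows. The E-box CACGTG was in 1 window (2.27%, beside 7.26% and 9.13%), CCAAT in 7 (15.9%, beside 34.6% and 34.7%) and the GC box in 32 (72.7%, beside 45.0% and 65.3%). The members' windows had a median G and C content of 67.2%, beside 58.7% for all promoters. A short match is a description of letters only.

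The stretch around the relaxed PPAR element of ECI2 is shown because it was the only match to that motif among the members' windows, with capitals marking the match, which is read on the other strand. It is written 5′ to 3′ along the gene's own strand, from the window at chr6:4135526-4135825 on the minus strand of GRCh38.p14, and the match begins 192 bases before the start site.
ECI2: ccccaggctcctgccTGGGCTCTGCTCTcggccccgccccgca

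Around the members, 7 lists of other genes of fatty acid handling were counted in the same fit. Of all tested genes, 29.7% were higher and 30.1% were lower. Of the uptake and other activation genes, 11 of 22 were tested, of which 2 were higher and 3 were lower (median log2 fold change 0.02). ACSS2, the cytosolic acetyl-CoA synthetase, had 29.4, 24.0 and 27.3 CPM in shGDPD5, against 62.0, 65.9 and 69.5 CPM in shCtrl. It fell past the fold threshold without overlap (log2 fold change -1.29, adjusted p = 2.42e-08). DBI, the acyl-CoA binding protein, was higher by 0.60 (adjusted p = 2.75e-06) and SLC27A1, a fatty acid transport protein, was lower at -0.76 (adjusted p = 3.29e-05). Among 20 tested other oxidation enzymes and carriers, 4 were higher and 4 were lower (median -0.02), with ECHDC2, an enoyl-CoA hydratase domain gene, at -0.83 (adjusted p = 8.08e-07). HIBCH, of valine breakdown, was at 0.50 (adjusted p = 1.28e-05) and HSD17B10, of isoleucine breakdown, at 0.43 (adjusted p = 8.39e-05).

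The acyl-CoA thioesterases, which undo activation by releasing the free acid, held 3 higher and no lower genes among 6 tested of 12 (median 0.11). ACOT7 had 59.2, 61.1 and 58.4 CPM in shGDPD5, against 33.0, 38.4 and 43.2 CPM in shCtrl, with no overlap (log2 fold change 0.64, adjusted p = 2.4e-05). ACOT11 was higher by 0.59 (adjusted p = 2.77e-05) and ACOT9 by 0.18 (adjusted p = 0.0109). The other 6 of the 12 thioesterase genes had too few counts to be tested. Of the propionyl-CoA and ketone body enzymes, 2 were higher and 2 lower among 7 tested (median -0.10). BDH1 and OXCT1, which turn ketone bodies back into acetyl-CoA precursors, were both higher, by 0.97 (adjusted p = 5.28e-07) and 0.67 (adjusted p = 1.75e-06).

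Malonyl-CoA made by acetyl-CoA carboxylase inhibits CPT1, and the kinase AMPK limits its synthesis. Of 9 tested genes of this control, 1 was higher and 2 were lower (median -0.10). PRKAA1, the alpha-1 catalytic subunit of AMPK, had 69.5, 67.3 and 66.2 CPM in shGDPD5, against 99.3, 89.8 and 93.9 CPM in shCtrl. It was lower without overlap (log2 fold change -0.48, adjusted p = 7.94e-06). PRKAA2, the other catalytic subunit, was lower at -0.66 (adjusted p = 0.000373), and ACACB, the carboxylase of the outer mitochondrial membrane, was higher by 0.45 (adjusted p = 0.0035).

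Of 12 tested regulators of oxidation genes, 3 were higher and 4 were lower (median -0.03). SIRT5, a mitochondrial deacylase, was lower at -0.62 (adjusted p = 4.78e-06), LPIN1, a phosphatidate phosphatase and coactivator, was higher by 0.68 (adjusted p = 2.03e-05), and RXRB, a partner of PPARs, was lower at -0.41 (adjusted p = 0.00011). PPARGC1A, the coactivator of mitochondrial biogenesis, was listed at 0 counts in all 6 libraries. Of 16 peroxisome assembly genes, 5 were higher and 6 were lower (median -0.09), among them PEX3 at 0.52 (adjusted p = 0.000155), PEX10 at -0.68 (adjusted p = 0.00017) and PEX19 at -0.36 (adjusted p = 0.000264). As for the members, the medians of these 7 lists lay within 0.11 of 0, with genes in both directions in each list but the thioesterases.

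**Figure D5:**
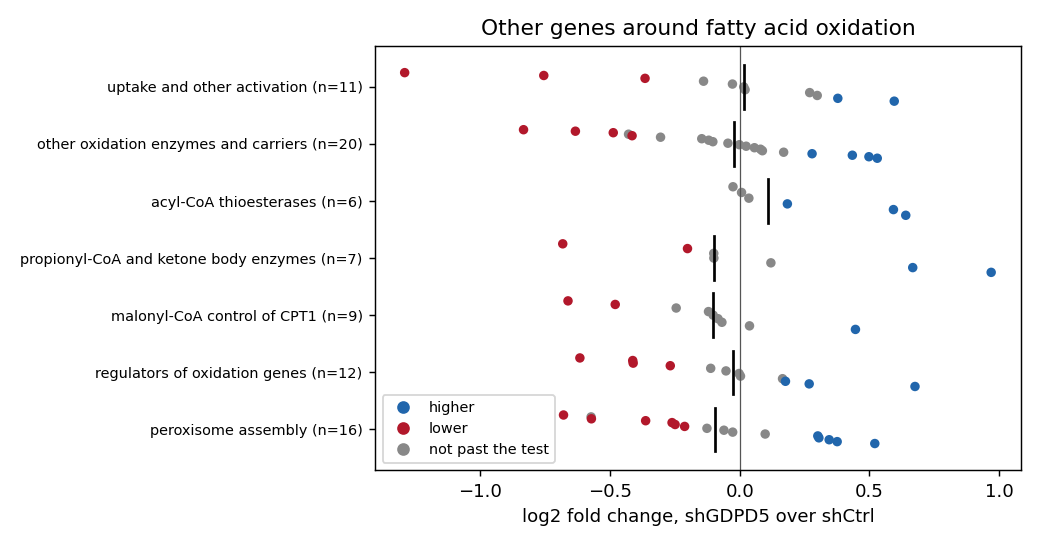
Log2 fold change, shGDPD5 over shCtrl (x axis), of the tested genes in 7 lists around fatty acid oxidation (y axis, with the number tested). Each point is a gene, blue for higher, red for lower and grey for not past the test, and the black bar is the median of the list. The medians run from -0.10 to 0.11, and ACSS2 in the uptake and activation list, at -1.29, is the point farthest from 0.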

How the data were processed

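RNA-seq was analysed for 3 shGDPD5 and 3 shCtrl libraries of HCT116. The deposited table gives estimated counts for each gene, made by a company for the authors, with values that need not be whole. No aligner, counting tool, strand setting or genome build is given in the sources used here, and each can change the counts of overlapping genes. Per the labels, total RNA and a SMARTER kit were used. Every value column was matched to a label.

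Rounding the estimated counts moved no value by more than 0.5. Low genes were removed with filterByExpr (minimum count 10) and scaled by TMM. They were tested in R 4.3.3 with edgeR 4.0.16 by its quasi-likelihood test, with no covariate, and p-values were adjusted by Benjamini-Hochberg over all 16755 genes kept. Called means an adjusted p under 0.05. The common biological coefficient of variation was 0.0555. Intervals are 95% intervals of the fit. Levels per length are TMM-scaled CPM divided by kilobases of merged exons in GENCODE release 29 on GRCh38, which also gave positions and overlaps. A count of 0 was taken to allow 3 counts, a limit that covers sampling alone. At 16715447 to 18510670 counts per library, low genes such as ACSL6, with 24 to 54 counts, are measured with low precision.

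The members and gene lists were chosen with earlier results of these data known, and the lists were written from general knowledge. Every member is accounted for. In each step, up to 5 called members with the smallest adjusted p have full statistics, and of each other list up to 3 called genes are named. A few items are not reported here. Alternatives were RLE and upper quartile factors, library sizes alone, DESeq2 1.42.0, limma-voom (limma 3.58.1), an equal-variance comparison gene by gene on log2(CPM + 1) after the study's stated method, no filter, 10 counts in every library, a replicate block, and each library left out in turn. The scripts were tested on simulated data.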

Additional observations from a re-analysis of the deposited data

How the results depend on the processing

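Under the 15 alternatives no called member changed direction, and none of the 36 members reached a log2 fold change of 1 in size with an adjusted or an unadjusted p under 0.05. Higher members numbered 11 to 16 and lower members 9 to 12 (11 to 13 and 9 to 12 with each library left out in turn). GDPD5 stayed lower, at -0.99 to -0.75. Of the 23 called members, 19 were called in every alternative. CPT1B was lost in 4 of them, ABCD3 in 10, ACADS without shCtrl replicate 3, and ACSL6 with DESeq2, with the gene-by-gene comparison on log2(CPM + 1), without shGDPD5 replicate 2 and without shCtrl replicate 2. Another 6 members were called in at least 1 alternative. These were ACSL1, ACAD9 and HADHA with library sizes alone, ACSL4, ACADVL and ETFB without shCtrl replicate 1, HADHA also with the gene-by-gene comparison and ETFB also with no filter. With library sizes alone the median of all tested genes moved to 0.07, and the medians of the mitochondrial and peroxisomal steps were 0.178 and -0.107. In the gene-by-gene comparison the activation median was -0.248, where ACSL6, a middle gene of that step, stood at -0.446. With each library left out, the activation median lay between -0.406 and -0.296 (-0.296 without shCtrl replicate 2), and the mitochondrial median between 0.0729, without shCtrl replicate 1, and 0.146.

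Libraries of the same number did not deviate together (correlations of -0.07, -0.05 and -0.04). This cannot tell whether they were prepared as pairs, which is not stated in the sources used here. With a replicate block, 9645 genes were called in all, beside 10006 without it, and 12 members were higher and 10 lower.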
